A study of Mus musculus with 24 samples.

Results

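Cells make cholesterol from acetyl-CoA through the mevalonate pathway, and the absorptive cells of the small intestine also take it up from the gut lumen. The genes described here encode enzymes of that synthesis, the proteins that regulate it, and proteins of cholesterol uptake, transport, storage and efflux. They were chosen from a list of 28 gene symbols, by taking every probe of the array table that carries one of these symbols. Hmgcs1, Mvk and Fdft1 had no probe in the table and were not analysed here, which left 25 genes with 37 probes, of 18138 gene symbols with 25697 probes in all. The single probe of Abca1, a cholesterol efflux pump, was not above background on any of the 24 arrays (lowest detection p-value 0.0815), so 24 genes were tested.

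RNA came from small intestinal organoids of C57BL/6 mice, epithelial cultures that form crypt-like buds. All of them grew in ENR medium, which holds EGF at 50 ng/ml, Noggin and R-spondin. A gamma dose of 6 Gy was given to the irradiated organoids 3 days after they had been reseeded, control organoids received none, and each was sampled at 24, 48 and 96 h, with separate controls at each time and 4 samples in each of the 6 groups. Whether replicates were independent cultures is not stated in the labels, and the p-values therefore rest on a spread that could be only technical.

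Sterol synthesis is set by a feedback loop. When membrane sterol is scarce, the escort protein SCAP carries the SREBP transcription factors from the endoplasmic reticulum to the Golgi, where they are cut and released to the nucleus, and SREBP-2 then raises transcription of nearly every enzyme of the pathway. When sterol is plentiful, INSIG proteins hold the complex back, and oxysterols activate the LXR receptors, which raise efflux genes. Enterocytes import cholesterol through NPC1L1 at the brush border and esterify it with SOAT2 before export.

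Transcripts were measured on Illumina BeadChips, and levels below are log2 units of the normalized probe signal. Between 9738 and 14751 probes were detected on an array, with 13010 ± 485 (SD, n = 4) in the 24 h controls against 11470 ± 1475 in the 24 h irradiated samples. The 8 arrays of a time shared 1 chip, with controls on the first 4 positions and irradiated samples on the last 4, so position and irradiation cannot be told apart. The epithelial markers Cdh1, Krt8 and Krt18 were detected on 24 of 24 arrays, Krt19 and Cldn7 too. Of 26 markers of mesenchyme, immune cells, endothelium and erythroid cells with a probe, 19 were detected on 0 arrays, among them Col1a1, Col3a1, Ptprc, Cd68, Cdh5 and Kdr, and the other 7 on 1 to 12 arrays.

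Of the 16 tested synthesis enzymes, 10 fell after irradiation at 24 h, 6 at 48 h and 3 at 96 h, while the uptake gene Npc1l1 and the esterification gene Soat2 rose at 24 h. At 24 h, 11 of the 24 tested genes fell and 2 rose at an adjusted p under 0.05 (limma, Benjamini-Hochberg over 10798 genes), against 12.5% and 11.2% of all genes tested. The 11 were 10 enzymes and the feedback gene Insig1. The 2 that rose were a smaller share than among all genes, and neither was called when arrays were scaled to a common median. At 48 h, 9 of the 24 genes fell and 1 rose, against 6.25% and 7.3% of all genes. At 96 h 4 fell and 0 rose, against 3.39% and 1.72% (5.11% in either direction). At an unadjusted p under 0.05, 9 were lower and 0 higher at 96 h, against 10.5% and 7% of all genes. Because RNA was taken from whole organoids, fewer cells of a type and less RNA per cell cannot be told apart.

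All irradiated arrays lay below all control arrays for 11 of the 24 genes at 24 h, 9 at 48 h and 6 at 96 h, against 16.1%, 11% and 4.6% of all genes. The 6 include Sc5d, which was above background on 1 of the 4 irradiated 96 h arrays. Its probe passed the detection filter through the control arrays, so its separation at 96 h is no support for a fall. They lay above for 2, 3 and 0 of them, against 12.7%, 9.44% and 2.94%.

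The median log2 change of the 24 genes was -0.34 at 24 h, -0.28 at 48 h and -0.24 at 96 h, and that of all genes was -0.04, -0.04 and 0.00. At 24 h all 16 measured enzymes had a negative log2 change, from -0.78 to -0.05, and at 48 h and 96 h 14 and 15 of them did. The share of all genes at or below 0 was 0.55, 0.55 and 0.51 at the 3 times. On the irradiated 24 h arrays Sc5d was above background on 0 of 4 and Ggps1 on 2 of 4. At 48 h and at 96 h Sc5d was above background on 1 of 4 irradiated and 4 of 4 control arrays, so its negative changes are partly set by background. Taking the mean level of the 16 enzymes on each array relative to the control mean of its time, the irradiated arrays lay between -0.46 and -0.33 at 24 h, between -0.27 and -0.21 at 48 h and between -0.27 and -0.17 at 96 h. The control arrays lay between -0.11 and 0.12 over the 3 times, so the groups did not overlap. As the mean effect over the 3 times, 15 of the 24 genes fell and 1 rose, with 11 of the 16 enzymes among the 15, against 16.5% lower and 12.1% higher of all genes (28.6% in either direction).

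**Figure D1:**
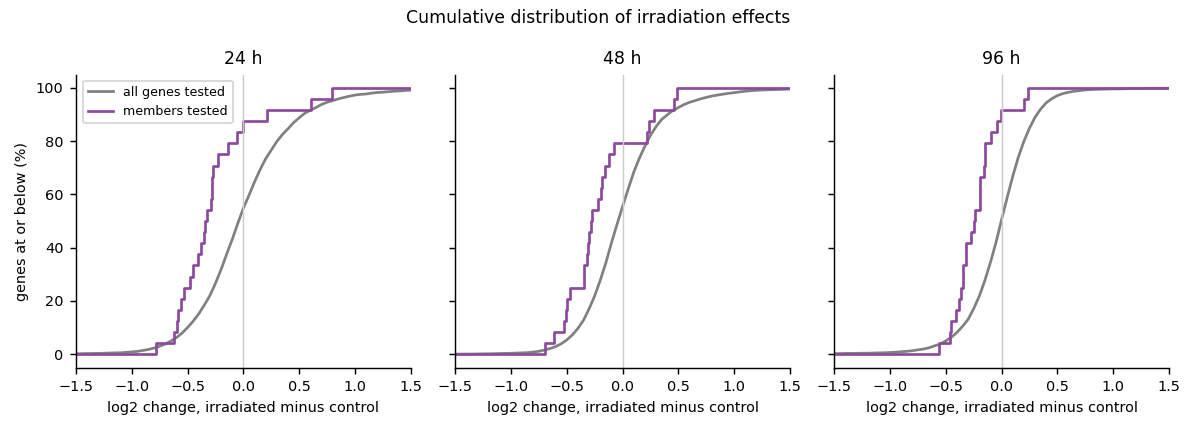
Cumulative share of genes (percent) at or below each log2 change between irradiated and control organoids at 24, 48 and 96 h, for the 24 tested cholesterol genes and for all 10798 genes tested. The curve of the cholesterol genes lies to the left of that of all genes over most of its range, with medians of -0.34, -0.28 and -0.24 against -0.04, -0.04 and 0.00.

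The size of these shifts depends on how arrays are scaled to each other. When arrays were scaled to a common median instead of quantile-normalized, the median of all genes at 24 h moved to -0.44, with 464 genes higher and 4925 lower (1204 and 1354 with quantile normalization, 1481 and 680 with cyclic loess). Relative to the median of all genes, the cholesterol genes stood at -0.29 with quantile normalization, -0.40 with median scaling and -0.30 with cyclic loess. With cyclic loess their medians at the 3 times were -0.25, -0.23 and -0.25. Of the 24 genes, 19 were called lower at 24 h with median scaling (45.6% of all genes) and 6 with cyclic loess (6.3%). In the latter, Acat2, Dhcr7, Cyp51, Sc4mol and Insig1 lost the call.

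The number of detected probes also differed between arrays. The 5 arrays with the fewest detected probes were irradiated 24 h replicates 3 and 4, irradiated 96 h replicates 3 and 4 and control 96 h replicate 4. The fit without these arrays was added after the data were seen. In it 4 of the 24 genes were called lower at 24 h (6.3% of all genes), 8 at 48 h (7.35%) and 0 at 96 h (1.41%). The 4 at 24 h were Lss, Sqle, Fdps and Acat2. At 96 h the changes without the 5 arrays were -0.49 for Lss, -0.65 for Mvd, -0.40 for Sqle and -0.44 for Insig1 (adjusted p = 0.0529 to 0.102). The median of the 24 genes was then -0.30 at 96 h and -0.32 at 24 h.

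Cell type markers moved in the same samples. Beside the counts below, 11.2% of all genes rose and 12.5% fell at 24 h. At 48 h 7.3% rose and 6.25% fell, and at 96 h 1.72% rose and 3.39% fell. The 15 tested enterocyte genes all rose at 24 h, and their summed signal was 16500 to 18900 in control and 26900 to 31500 in irradiated arrays. At 48 h 13 of them rose, with sums of 12900 to 14400 against 23400 to 24400, and at 96 h 4 rose, with sums of 11000 to 14100 against 12400 to 14300. Of 14 tested mitosis genes, 13 fell at 24 h and 6 at 48 h, and their median change at 96 h was 0.03, with summed signals at 24 h of 6850 to 7180 in control and 4320 to 4490 in irradiated arrays. Of 9 crypt base stem cell genes 5 fell and 1 rose at 24 h, with sums of 5360 to 5990 in control and 3390 to 3690 in irradiated arrays, and at 48 h 4 fell, with sums of 8820 to 9760 against 6460 to 7210. The 1 tested tuft cell gene overlapped between groups at 24 h, at 26.8 to 38.8 in control and 11.7 to 74.2 in irradiated arrays. Summed signals of enteroendocrine, Paneth and goblet cell genes were higher at that time. The sums were 3630 to 3830 against 6670 to 6910 for 8 enteroendocrine genes (4 rose), 17000 to 19400 against 22100 to 25500 for 6 Paneth cell genes (5 rose) and 10500 to 11400 against 14300 to 14900 for 5 goblet cell genes (3 rose). At 96 h the enteroendocrine, goblet and crypt base sums overlapped between groups, and the Paneth sums were 25700 to 28000 in control and 23300 to 25400 in irradiated arrays. The part of any of these marker lists in the changes of the cholesterol genes was not tested.

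**Figure D2:**
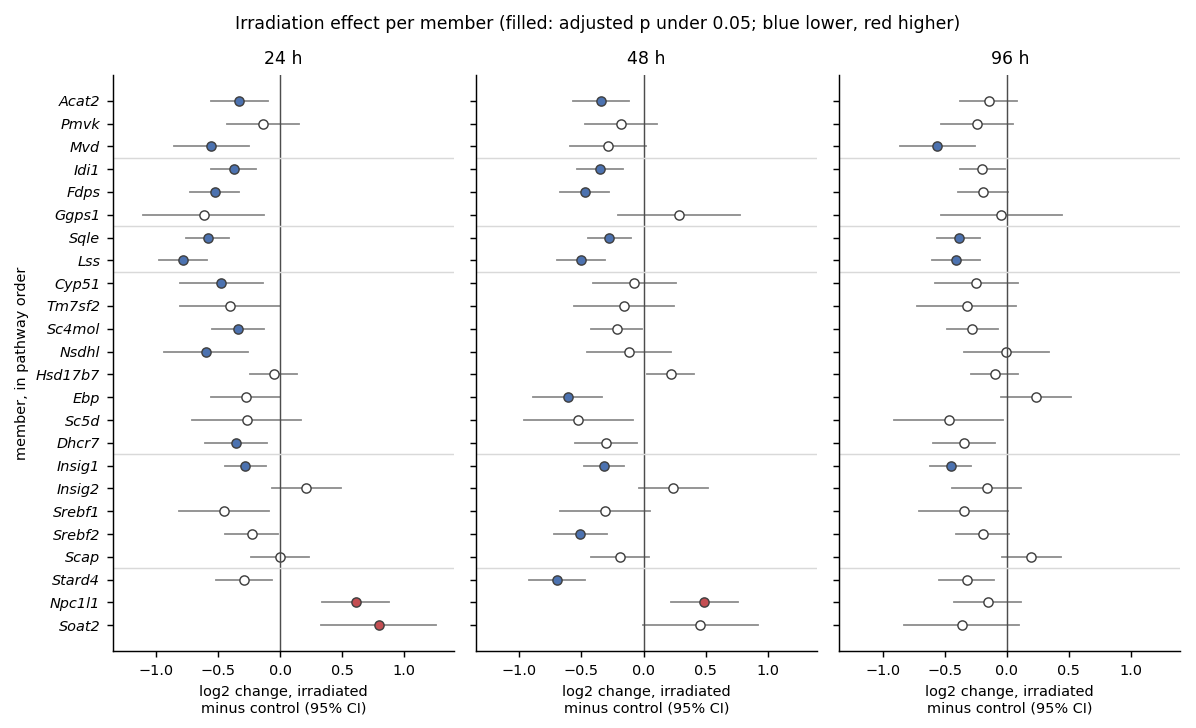
Log2 change between irradiated and control organoids with its 95% confidence interval for each of the 24 tested genes, in pathway order from acetyl-CoA to cholesterol, then regulators, then transport and storage, at 24, 48 and 96 h. Filled points passed an adjusted p of 0.05, and they number 13 at 24 h, 10 at 48 h and 4 at 96 h.

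The promoters of these genes are described here because many of the genes fell in the same samples. RefSeq windows (build GRCm38.p6, from 250 bases before to 50 bases after the start) were at hand for 20 of the 24 tested genes, 28 windows in all. The windows of 5 genes that the results below turn on are printed here 5′ to 3′ on the strand of the gene: Lss, an enzyme that fell at all 3 times, Idi1, an enzyme that fell at 24 and 48 h, the regulators Insig1 and Srebf2, and Npc1l1, the importer that rose. They lie at chr10:76531355-76531654 (Lss, plus strand), chr13:8885356-8885655 (Idi1, plus), chr5:28071162-28071461 (Insig1, plus), chr15:82147019-82147318 (Srebf2, plus) and chr11:6230196-6230495 (Npc1l1, minus). Capitals mark CCAAT or its reverse complement, the letters bound by NF-Y, and the shorter sterol element core named after the sequences.
Lss: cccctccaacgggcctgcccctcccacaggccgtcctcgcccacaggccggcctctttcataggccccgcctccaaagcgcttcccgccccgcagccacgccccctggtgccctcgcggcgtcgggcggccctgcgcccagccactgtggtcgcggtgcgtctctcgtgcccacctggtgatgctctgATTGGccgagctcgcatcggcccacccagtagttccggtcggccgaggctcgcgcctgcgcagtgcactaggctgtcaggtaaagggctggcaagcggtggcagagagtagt
Idi1: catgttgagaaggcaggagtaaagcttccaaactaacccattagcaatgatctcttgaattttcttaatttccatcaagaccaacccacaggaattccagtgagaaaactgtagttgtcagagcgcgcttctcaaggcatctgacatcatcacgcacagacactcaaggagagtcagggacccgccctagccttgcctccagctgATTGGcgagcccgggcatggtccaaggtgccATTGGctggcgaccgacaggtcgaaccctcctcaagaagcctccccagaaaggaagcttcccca
Insig1: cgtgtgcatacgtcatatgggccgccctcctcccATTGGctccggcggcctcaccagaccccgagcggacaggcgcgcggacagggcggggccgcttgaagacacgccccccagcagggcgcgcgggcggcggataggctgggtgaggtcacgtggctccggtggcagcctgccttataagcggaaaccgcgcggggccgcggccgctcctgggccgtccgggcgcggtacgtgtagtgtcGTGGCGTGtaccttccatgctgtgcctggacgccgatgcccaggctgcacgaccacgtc
Srebf2: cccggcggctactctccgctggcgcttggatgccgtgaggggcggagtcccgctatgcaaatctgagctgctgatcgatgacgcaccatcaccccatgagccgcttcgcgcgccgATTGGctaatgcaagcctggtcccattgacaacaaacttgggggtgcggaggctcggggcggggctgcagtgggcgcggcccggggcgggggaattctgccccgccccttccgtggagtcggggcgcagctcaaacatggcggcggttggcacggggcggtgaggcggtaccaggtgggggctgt
Npc1l1: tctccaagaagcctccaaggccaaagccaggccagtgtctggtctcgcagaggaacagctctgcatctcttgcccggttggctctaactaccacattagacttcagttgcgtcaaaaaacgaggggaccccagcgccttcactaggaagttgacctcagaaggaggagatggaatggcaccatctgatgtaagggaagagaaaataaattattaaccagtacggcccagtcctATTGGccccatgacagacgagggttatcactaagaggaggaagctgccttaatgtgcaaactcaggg

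The core of the sterol regulatory element was searched as TCACNCCAC on both strands, and 0 of the 20 genes held it in these windows, against 1.44% of 27025 genes. The window of Hmgcs1, which had no probe, held it. A shorter core, CACNCCAC, which overlaps the first motif and was added after that result, was held by 2 of the 20 (10%), Acat2 and Insig1, against 7.12% of genes. CCAAT on either strand was held by 18 of the 20 genes (90%), against 41.1%. The GC box bound by Sp1, GGGCGG, was held by 17 of the 20 (85%), against 38.2%. Counted per window, CCAAT was in 67.9% of the windows of these genes and in 37.4% of all windows, and the GC box in 75% and 35.7%. The shares of all genes count every gene with a window, tested here or not, whereas the 20 were all detected in these organoids. Shares among the tested genes alone were not computed, so the contrasts cannot be read as particular to the cholesterol genes. Only exact matches were counted, so a sterol element with other letters, or one outside the window, would be missed. The count of 0 therefore does not show that these promoters lack a sterol element. These matches describe letters in a window and are not measured binding sites.

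**Figure D3:**
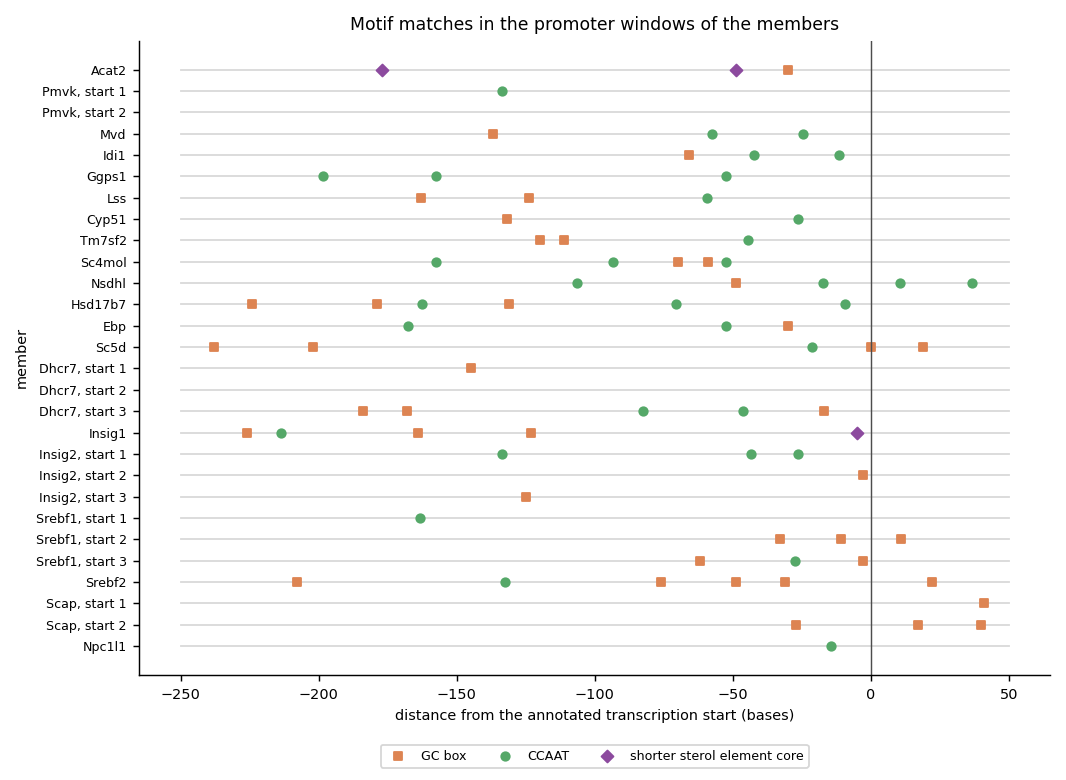
Positions of GC boxes, CCAAT and the shorter sterol element core in the 28 promoter windows of the 20 genes with a window, in bases from the annotated start. CCAAT or a GC box is in most windows, and the shorter sterol core is in the windows of Acat2 and Insig1.

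In the early steps, which build mevalonate and decarboxylate it, 2 of the 3 measured genes fell at 24 h, 1 at 48 h and 1 at 96 h. Mvd encodes the decarboxylase that makes isopentenyl diphosphate. At 24 h its log2 change was -0.56 (SE 0.15, adjusted p = 0.00773), with arrays that overlapped. At 96 h the control levels were 8.16, 8.27, 8.19 and 8.01, and the irradiated levels 7.65, 7.46, 7.56 and 7.72. The groups were then apart, with the same change of -0.56 (adjusted p = 0.0253). The 96 h call was lost without any 1 of control replicates 1, 2 and 3 or irradiated replicates 2 and 3 (adjusted p = 0.0506 to 0.0692).

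Acat2 encodes the cytosolic thiolase that joins acetyl-CoA units, the first step of the pathway. Its 24 h change was -0.33 (adjusted p = 0.0323). At 48 h its levels were 9.65, 9.55, 9.76 and 9.83 in control and 9.28, 9.26, 9.45 and 9.45 in irradiated arrays, without overlap (-0.34, SE 0.11, adjusted p = 0.0411). Both calls were close to the threshold. Leaving out 1 array ended the 24 h call for control replicates 2 and 4 and irradiated replicates 1, 2 and 3 (adjusted p up to 0.0991), and the 48 h call for each array but control replicate 2 (up to 0.103). Pmvk, phosphomevalonate kinase, did not pass the test at any time, with changes of -0.14, -0.18 and -0.24.

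In the isoprenoid steps, which build the chain of squalene, Idi1 and Fdps fell at 24 and 48 h. Fdps encodes farnesyl diphosphate synthase, whose product feeds both sterols and protein prenylation. Its 24 h levels were 11.05, 10.996, 11.13 and 11.11 in control and 10.53, 10.55, 10.61 and 10.48 in irradiated arrays. The 8 values formed separate groups, with a log2 change of -0.53 (SE 0.10, adjusted p = 0.000308), which is 1.44-fold lower. At 48 h the levels were 10.93, 10.74, 11.01 and 10.71 in control and 10.38, 10.39, 10.29 and 10.42 in irradiated arrays. They were again apart (-0.47, adjusted p = 0.00151), and at 96 h the change was -0.19 with overlapping arrays (adjusted p = 0.316).

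Idi1 encodes the isomerase that interconverts the isoprenoid building blocks. At 24 h it measured 12.27, 12.28, 12.51 and 12.43 in control and 12.01, 12.07, 11.93 and 11.98 in irradiated arrays. All irradiated arrays were below the controls (-0.38, SE 0.09, adjusted p = 0.00318). At 48 h it measured 12.53, 12.38, 12.50 and 12.45 in control and 12.18, 12.20, 12.11 and 11.97 in irradiated arrays, with the same separation (-0.35, adjusted p = 0.00889). At 96 h the change of -0.20 did not pass (adjusted p = 0.245). Ggps1, whose product is used for prenylation of proteins and not for cholesterol, had changes of -0.62, 0.29 and -0.04, none of which passed, and its 24 h irradiated arrays spread from 5.66 to 6.72. A second probe of Ggps1, detected on 22 arrays like the first, had changes of -0.03, 0.12 and -0.40, none called. It did not show the 24 h difference of the brighter probe.

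The 2 measured enzymes that turn squalene into the first sterol, Sqle and Lss, were called lower at each of the 3 times. Lss encodes lanosterol synthase, which closes the ring system. Its 24 h levels were 10.05, 10.09, 10.14 and 10.10 in control and 9.47, 9.12, 9.35 and 9.31 in irradiated arrays. This was a 1.72-fold difference with no overlap (log2 change -0.78, SE 0.09, adjusted p = 1.56e-06), the largest fall among the 24 genes at 24 h. At 48 h Lss measured 9.90, 10.01, 10.03 and 9.76 in control and 9.41, 9.43, 9.36 and 9.48 in irradiated arrays (-0.50, SE 0.09, adjusted p = 0.000678). At 96 h it measured 10.20, 10.11, 10.01 and 10.12 in control and 9.71, 9.51, 9.87 and 9.70 in irradiated arrays (-0.41, SE 0.09, adjusted p = 0.00928). At each time every irradiated array was below every control array. The 96 h call of Lss was lost when the 8 arrays of that time were fitted alone (adjusted p = 0.2105). It was also lost with same-numbered replicates fitted as blocks (0.0556) and without the 5 arrays with the fewest detected probes (0.0529).

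Sqle encodes squalene epoxidase, a rate-limiting oxygen-dependent step. At 24 h its levels were 10.35, 10.44, 10.46 and 10.28 in control and 9.77, 9.72, 9.80 and 9.90 in irradiated arrays. The groups were apart by more than the spread within either (-0.59, SE 0.08, adjusted p = 1.55e-05), 1.5-fold. At 96 h the levels were 10.41, 10.66, 10.36 and 10.45 in control and 10.05, 10.11, 10.01 and 10.16 in irradiated arrays, again apart (-0.39, adjusted p = 0.00533). The 48 h change was smaller, -0.27 (adjusted p = 0.0293), and its call was lost without any 1 of control replicates 1, 2 and 3 or irradiated replicates 1 and 3 (up to 0.0857). A second, dimmer probe of Sqle fell by 0.90 at 24 h (adjusted p over all detected probes = 0.00832) and had changes of -0.18 and -0.04 at 48 and 96 h, which did not pass. With the mean of the probes, the Sqle change was -0.23 at 48 h and -0.21 at 96 h, neither called (adjusted p = 0.3001 and 0.436). The 96 h call of Sqle was also lost with the 8 arrays of that time alone (0.2275) and without the 5 arrays with the fewest detected probes (0.1015).

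**Figure D4:**
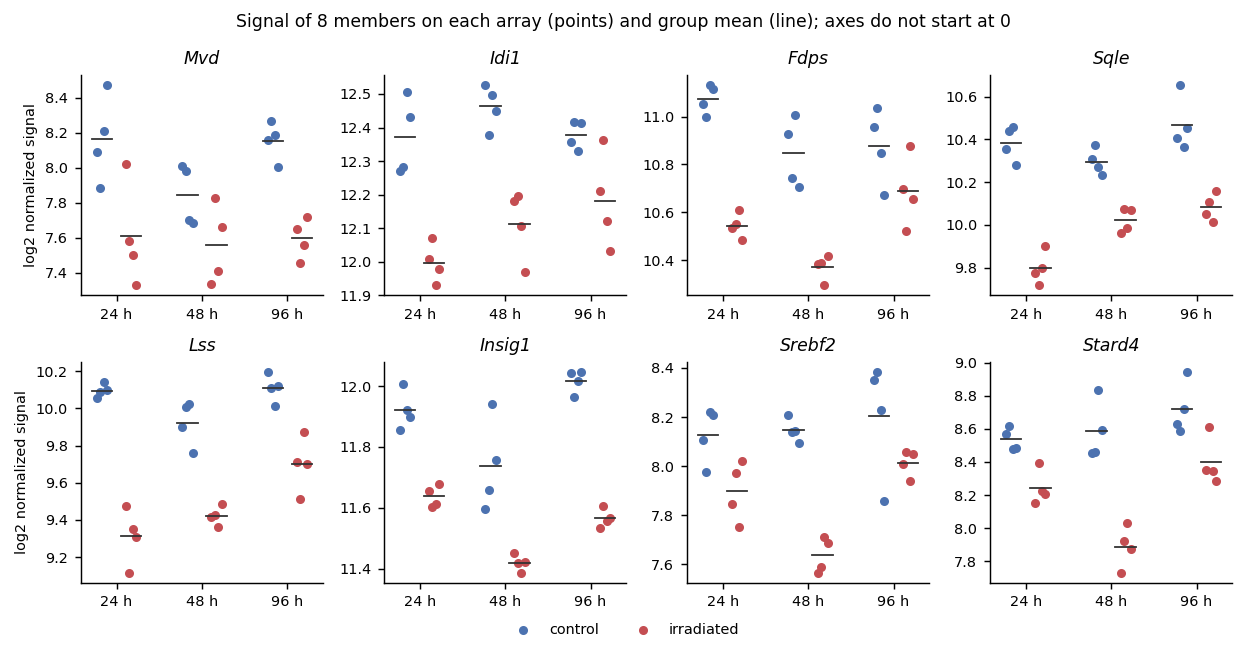
Log2 normalized signal of Mvd, Idi1, Fdps, Sqle, Lss, Insig1, Srebf2 and Stard4 on each of the 24 arrays (points) with group means (lines), control and irradiated, at 24, 48 and 96 h. For Lss and Sqle the irradiated points lie below the control points at each time, while for Srebf2 and Stard4 the gap is widest at 48 h.

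Among the 8 measured enzymes between lanosterol and cholesterol, 4 fell at 24 h and 1 at 48 h, against 12.5% and 6.25% of all genes. For so few genes the 1 at 48 h is little more than the background. Cyp51, Sc4mol and Nsdhl, which strip methyl groups from the sterol, and Dhcr7, which makes cholesterol in the last reduction, fell at 24 h. Nsdhl measured 10.04, 9.90, 9.76 and 9.77 in control and 9.14, 9.49, 9.27 and 9.19 in irradiated 24 h arrays. These did not overlap (-0.60, SE 0.16, adjusted p = 0.0104), and all 4 detected probes of Nsdhl fell at 24 h, by 0.55 to 0.70. At 96 h its brightest probe did not differ beyond the spread (95% interval of the change -0.34 to 0.34), while its dimmest fell by 0.83 (adjusted p = 0.00714), so the probes of Nsdhl disagree at that time.

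Cyp51, the lanosterol demethylase, measured 9.83, 9.99, 9.88 and 9.62 in control and 9.42, 9.6, 9.12 and 9.27 in irradiated 24 h arrays. The highest irradiated array lay just under the lowest control (-0.48, SE 0.16, adjusted p = 0.0347). Leaving out any 1 of control replicates 1, 2 and 3 or irradiated replicates 3 and 4 ended this call (adjusted p up to 0.117). The call of Dhcr7 (-0.35, adjusted p = 0.0351) ended without any control replicate or irradiated replicate 3 or 4 (up to 0.0979), and that of Sc4mol, now named Msmo1 (-0.34, adjusted p = 0.0152), without control replicate 3 (0.0568). Tm7sf2, Hsd17b7 and Sc5d did not pass at any time. Hsd17b7 was within -0.24 to 0.13 of no change at 24 h (95% interval), and Sc5d was not above background on any irradiated 24 h array.

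Ebp encodes the sterol isomerase of the late pathway. At 48 h it measured 8.57, 8.43, 8.70 and 8.29 in control and 8.02, 8.01, 7.83 and 7.69 in irradiated arrays. It was lower in every irradiated array (-0.61, SE 0.13, adjusted p = 0.00309), 1.53-fold. At 96 h the levels were 8.37, 8.31, 8.0 and 7.95 in control and 8.33, 8.42, 8.59 and 8.24 in irradiated arrays, which overlapped (0.24, adjusted p = 0.379). The change of the Ebp effect between 48 and 96 h was itself called (0.85, SE 0.19, adjusted p = 0.0129), against 3.53% of all genes called in either direction (2.71% lower and 0.815% higher). It was not called with median scaling (0.83, adjusted p = 0.249) or without the 5 arrays with the fewest detected probes (0.76, adjusted p = 0.0924).

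Of the 5 regulators of SREBP, Insig1 fell at each time and Srebf2 at 48 h, and the mean effect over the 3 times was called lower for Insig1, Srebf1 and Srebf2. Insig1 holds SCAP in the endoplasmic reticulum and is itself a target of SREBP. At 24 h it measured 11.85, 12.01, 11.92 and 11.90 in control and 11.66, 11.60, 11.61 and 11.68 in irradiated arrays (-0.28, SE 0.08, adjusted p = 0.0117). At 48 h it measured 11.59, 11.66, 11.94 and 11.76 in control and 11.45, 11.42, 11.39 and 11.42 in irradiated arrays (-0.32, adjusted p = 0.00799). The groups did not overlap at either time. At 96 h it measured 12.04, 11.96, 12.02 and 12.05 in control and 11.53, 11.61, 11.56 and 11.57 in irradiated arrays, again apart (-0.45, SE 0.08, adjusted p = 0.000719). All 4 probes of Insig1 fell at 96 h, by 0.45 to 0.81, whereas 2 of the 4 were called at 24 h and 3 at 48 h. With cyclic loess the 24 h change was -0.16 and not called (adjusted p = 0.195).

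Srebf2 encodes SREBP-2, the main activator of cholesterol synthesis. Its 48 h levels were 8.21, 8.14, 8.14 and 8.09 in control and 7.56, 7.59, 7.71 and 7.69 in irradiated arrays, which were all lower (-0.51, SE 0.10, adjusted p = 0.0015), 1.42-fold. At 24 h it measured 8.10, 7.98, 8.22 and 8.21 in control and 7.84, 7.97, 7.75 and 8.02 in irradiated arrays, with overlap (-0.23, adjusted p = 0.112). At 96 h it measured 8.35, 8.38, 8.23 and 7.86 in control and 8.01, 8.06, 7.94 and 8.05 in irradiated arrays (-0.19, adjusted p = 0.346), and control replicate 4 was the lowest of the 8. Whether the 48 h effect is larger than the others was tested as a change of effect between times, and that did not pass for Srebf2.

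Srebf1 encodes SREBP-1, which acts mainly on fatty acid genes. It measured 8.54, 8.58, 8.84 and 8.85 in control and 8.63, 7.83, 8.36 and 8.18 in irradiated arrays at 24 h. At 48 h the levels were 8.70, 8.77, 8.91 and 8.49 against 8.62, 8.83, 8.26 and 7.92, and at 96 h 9.05, 8.73, 8.56 and 8.68 against 8.26, 8.45, 8.54 and 8.38. The arrays overlapped at 24 and 48 h and not at 96 h, where the gap was small. Its changes of -0.45, -0.31 and -0.35 did not pass at single times (adjusted p = 0.0627, 0.273 and 0.309), and its mean effect over the 3 times was called (-0.37, SE 0.10, adjusted p = 0.00791). A second, dimmer probe of Srebf1, detected on 10 arrays, had changes of -0.27, -0.34 and 0.23, none called and the last of opposite sign. With 1 array left out, the 24 h change ranged from -0.32 without irradiated replicate 2 (adjusted p = 0.202) to -0.58 without irradiated replicate 1 (0.0219, called). The 48 h change ranged from -0.15 without irradiated replicate 4 to -0.45 without irradiated replicate 2, neither called. Insig2 and Scap did not pass at any time, with changes of 0.21, 0.24 and -0.16 for Insig2 and of 0.00, -0.19 and 0.20 for Scap.

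The 3 measured genes of cholesterol movement and storage did not change alike. Npc1l1, the brush border importer that ezetimibe blocks, was higher in irradiated organoids at 24 and 48 h. At 24 h its levels were 7.64, 7.60, 7.84 and 7.47 in control and 8.34, 8.22, 8.23 and 8.18 in irradiated arrays, without overlap (0.61, SE 0.13, adjusted p = 0.00158), 1.52-fold. At 48 h they were 6.42, 6.43, 6.43 and 6.47 in control and 6.97, 7.08, 7.04 and 6.63 in irradiated arrays (0.49, SE 0.13, adjusted p = 0.0132). The control arrays of that time lay within a very narrow range, and the lowest irradiated array was still above it. At 96 h they were 6.97, 6.71, 6.54 and 6.40 in control and 6.23, 6.50, 6.45 and 6.83 in irradiated arrays, which overlapped (-0.15, adjusted p = 0.595). With median scaling the 24 h change was 0.01 (not called) against a median of all genes of -0.44, and the 48 h change was 0.38 and not called (adjusted p = 0.2002).

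Soat2 encodes the enzyme that esterifies cholesterol in enterocytes. At 24 h it measured 6.86, 7.68, 7.48 and 7.48 in control and 8.22, 8.13, 8.02 and 8.30 in irradiated arrays. All irradiated arrays were higher (0.79, SE 0.22, adjusted p = 0.0128), 1.73-fold, and a second probe rose by 0.65 (adjusted p = 0.0264). The call rested on control replicate 1, the lowest of the 8, without which the change was 0.62 (adjusted p = 0.0629), and with median scaling the change was 0.20 (not called). At 48 h its levels were 6.64, 6.84, 6.80 and 6.45 in control and 7.27, 7.23, 6.99 and 7.05 in irradiated arrays, apart but not called (0.46, adjusted p = 0.198). At 96 h they were 6.61, 6.66, 6.97 and 6.28 against 6.82, 6.79, 5.93 and 5.53, with the irradiated arrays far from each other (-0.36, adjusted p = 0.431). Soat2 was above background on 3 of the 4 irradiated 96 h arrays. The second probe had changes of 0.42 at 48 h and 0.14 at 96 h, neither called. The enterocyte markers given above were higher at 24 and 48 h in the same arrays as Npc1l1 and Soat2, and their part in these rises was not tested.

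Stard4 encodes a protein that carries sterol between membranes and is a known SREBP-2 target. At 48 h it measured 8.46, 8.46, 8.84 and 8.59 in control and 7.73, 7.92, 8.03 and 7.87 in irradiated arrays. This was the largest fall among the 24 genes at 48 h, 1.62-fold with no overlap (-0.70, SE 0.11, adjusted p = 7.89e-05). At 24 h the change was -0.29 (adjusted p = 0.0512) and at 96 h -0.32 (adjusted p = 0.0935), neither of which passed.

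The effect of irradiation itself changed between 24 and 96 h for 2 of the 24 genes, Npc1l1 and Soat2, against 11.5% of all genes called in either direction (6.95% lower and 4.51% higher). For Npc1l1 the change was -0.76 (SE 0.18, adjusted p = 0.009), from a higher level in irradiated organoids at 24 h to none that could be called at 96 h. With median scaling it was -0.37 and not called (adjusted p = 0.466). For Soat2 it was -1.16 (SE 0.32, adjusted p = 0.0201), and without control 24 h replicate 1 it was -0.98 (adjusted p = 0.0515). It was -0.74 without the 5 arrays with the fewest detected probes (adjusted p = 0.119) and -0.70 with median scaling (0.243). The 2 probes of Soat2 differed in sign at 96 h, with -0.36 for the brighter and 0.14 for the dimmer, neither called. Between 24 and 48 h limma called 0 of the 24, against 1% of all genes (0.75% lower and 0.25% higher). At an unadjusted p under 0.05, 1 was lower and 4 were higher, against 5.33% and 5.13% of all genes. For the 16 enzymes no change of effect other than that of Ebp was called, and these comparisons share the control arrays of each time.

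The control organoids also changed with time in culture, where time and chip cannot be told apart. From 24 to 48 h, 5 of the 24 genes fell and 0 rose, against 8.98% and 11.1% of all genes, 20.1% in either direction (limma, with 8 lower and 0 higher at an unadjusted p under 0.05, against 14.3% and 18.2%). Npc1l1 fell by 1.2 (SE 0.13, adjusted p = 7.77e-07), Soat2 by 0.70 (adjusted p = 0.0314), Cyp51 by 0.58 (0.0126), Nsdhl by 0.51 (0.0291) and Dhcr7 by 0.50 (0.00467). The Npc1l1 level of the 48 h irradiated arrays, 6.93 ± 0.20 (SD, n = 4), was therefore below that of the 24 h controls, 7.64 ± 0.15, although above its own controls. Leaving out 1 array ended the call of Soat2 for 6 of the 8 arrays (all but control 24 h replicate 1 and control 48 h replicate 2), of Nsdhl without control 24 h replicates 1 or 2 or control 48 h replicate 3, and of Cyp51 without the last (adjusted p up to 0.142). With median scaling Npc1l1 alone was called among the 24 between 24 and 48 h, against 3.83% of all genes lower and 9.96% higher. From 48 to 96 h, Dhcr7 rose by 0.42 (adjusted p = 0.0464) and Insig1 by 0.28 (0.0424), against 2.95% of all genes higher, 2.23% lower and 5.19% in either direction. Each of these was lost with 1 array left out, for Dhcr7 control 48 h replicates 1 and 2 and control 96 h replicates 2, 3 and 4, and for Insig1 control 48 h replicates 1 and 2 and control 96 h replicates 3 and 4 (up to 0.182).

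**Figure D5:**
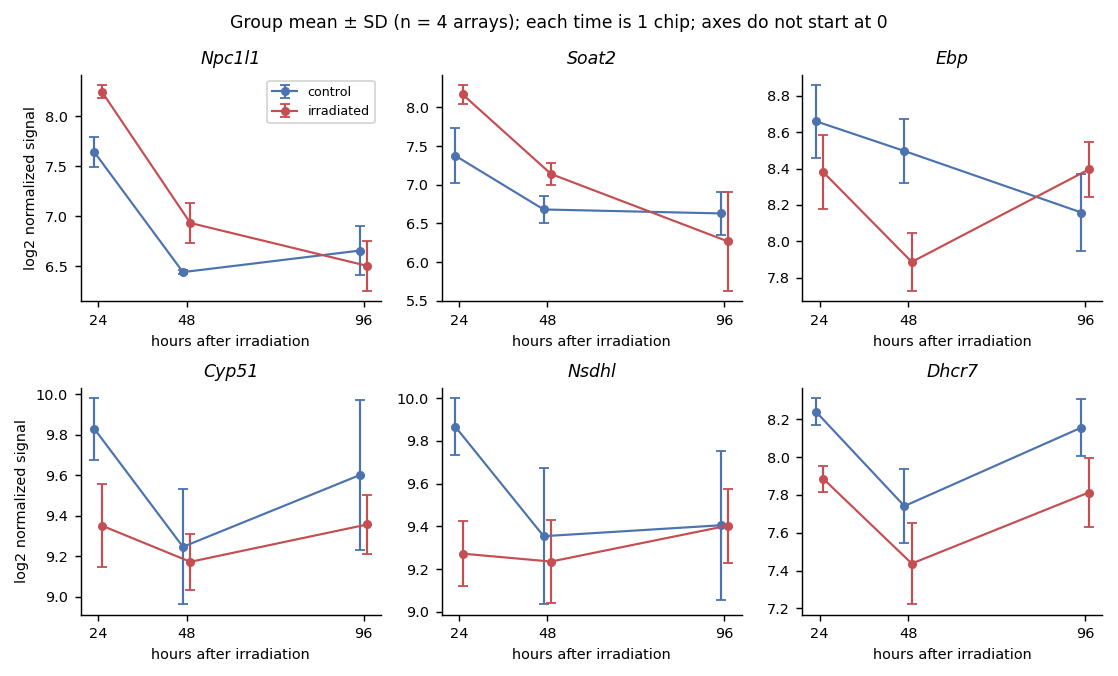
Group mean ± SD (n = 4 arrays) of the log2 normalized signal of Npc1l1, Soat2, Ebp, Cyp51, Nsdhl and Dhcr7 in control and irradiated organoids at 24, 48 and 96 h, where each time is 1 chip. Npc1l1 falls from 7.64 to 6.44 between the 24 and 48 h controls and is higher in irradiated organoids at both times, and the lines of Ebp cross between 48 and 96 h.

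The 16 enzymes were also compared within groups of replicates. After taking out the group means, the median correlation across the 24 arrays was 0.03 over the 120 pairs of enzymes and 0.00 over all pairs of genes tested, given as a description since all pairs share the same arrays.

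Genes of neighbouring pathways were counted from lists chosen with earlier results of these data known. Fatty acid synthesis and desaturation genes, most of them SREBP targets too, fell in 9 of 13 at 24 h, 6 at 48 h and 2 at 96 h, against 12.5%, 6.25% and 3.39% of all genes, with medians of -0.44, -0.37 and -0.21. The fatty acid desaturases Fads2 and Fads1 fell at 24 h by 1.34 and 1.31, Fads1 fell by 0.88 at 48 h, and the stearoyl desaturase Scd1 by 1.05 at 96 h. Of 6 tested genes of LXR and sterol efflux, 3 rose at 24 h and 2 at 48 h, against 11.2% and 7.3% of all genes. Abcg5 and Abcg8, which together form the pump that returns sterols to the lumen, rose by 0.88 and 0.86 (adjusted p = 6.76e-05 and 0.000103), and both rose at 48 h, by 0.83 and 0.53. At 96 h 2 of the 6 fell, against 3.39% of all genes, Smpdl3a by 0.80 and Nr1h2, which encodes LXR beta, by 0.70.

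Of 6 other genes of cholesterol traffic, 2 fell at 24 h and 1 at 96 h, against 12.5% and 3.39% of all genes, which for so few genes is little more than the background. Stard5, a sterol carrier, fell by 0.40 and Npc2, the lysosomal sterol carrier, by 0.33 at 24 h, and Soat1, the esterifying enzyme of most other cells, by 0.31 at 96 h. Of 10 genes that use isoprenoids for purposes other than cholesterol, 2 fell at 24 h and 1 at 48 h, near the 12.5% and 6.25% of all genes, and 1 rose at 96 h, against 1.72%. Pdss1, which builds the side chain of coenzyme Q, fell by 0.72 at 24 h and 0.90 at 48 h, and Zmpste24, a protease of prenylated proteins, rose by 0.32 at 96 h.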

How the data were processed

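The authors deposited, per the file headers, a probe intensity and a detection p-value for each of 24 Illumina arrays. Further upstream steps are not given in the sources used here. Here intensities were background-corrected by normexp from the detection p-values (offset 16), taken to log2 and quantile-normalized with limma 3.58.1 in R 4.3.3. Probes needed a detection p under 0.05 on 4 or more arrays, and the brightest probe stood for a gene (10798 genes). One mean per group was fitted over the 24 arrays with limma, with 18 residual degrees of freedom, and p-values were adjusted by Benjamini-Hochberg over all genes of a contrast. A gene was called at an adjusted p under 0.05. Groups came from the labels.

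The members and lists were chosen with earlier results of these data known. Array values are given for up to 8 called, non-overlapping members per time, up to 4 with a called change of effect, and Srebf2, Srebf1, Insig1 and Npc1l1. Those of Abca1 lay at background (normalized log2 signal 4.49 to 4.97). The authors' processed intensities, other background corrections, scalings, filters, probe rules, thresholds, a replicate block and single arrays left out were tried. The set without 5 arrays and the shorter sterol core were added after seeing the data. On simulated data for the 24 h contrast over 10798 genes, 82 of 100 genes changed by 1 log2 unit and 33 of 100 changed by 0.5 were recovered, with 5 false calls. The simulation changed only these genes and drew independent noise around 1 mean per gene, without differences between times or chips. In the real arrays 23.7% of all genes were called at 24 h, so these rates cannot be carried over to them. Promoters are from RefSeq (GRCm38.p6). The number of arrays limits the precision (median SE 0.17 at 24 h).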

Additional observations from a re-analysis of the deposited data

Results flagged for a closer look

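Of 144 groups of 4 values (24 genes in 6 groups), 6 held 1 sample far from the other 3 by Dixon's test, which chance alone would give in about 1 group of 20. Pmvk was 9.26 in control 48 h replicate 4 against 9.7 to 9.72 in the others. Ggps1 was 6.07 in control 48 h replicate 3 against 6.68 to 6.78. Cyp51 was 9.58 in irradiated 96 h replicate 4 against 9.28 to 9.29. Nsdhl was 8.95 in irradiated 48 h replicate 2 against 9.3 to 9.36, and 9.15 in irradiated 96 h replicate 2 against 9.45 to 9.51. Sc5d was 5.94 in control 96 h replicate 1 against 5.6 to 5.64. These values are log2 signals.

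The effect of irradiation differed between times for 3 genes by limma's test of the difference. For Ebp it changed by 0.85 from 48 to 96 h (adjusted p = 0.0129), where 3.53% of all genes were called in either direction. From 24 to 96 h it changed by -1.16 for Soat2 (adjusted p = 0.0201) and by -0.76 for Npc1l1 (adjusted p = 0.009), where 11.5% of all genes were called. With median scaling none of the 3 genes was called.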

How the results depend on the processing

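Of 182 counts of called genes under alternatives other than single arrays left out, 147 stayed within 1.5 times the reported count and 35 did not. Of 1032 values of single genes, with single arrays left out included, 896 kept their call status, 129 lost a call and 7 gained one. None changed sign, but most of these genes were followed because they were called, so a change of sign was unlikely from the start. The counts lower at 48 h (9) and called in the mean over the 3 times (16) stayed within 1.5 times under every alternative run. Shares of all genes under the same alternative follow in brackets, lower then higher for changes between times. Median scaling gave 19 lower (45.6%) and 0 higher (4.3%) at 24 h, 0 higher (3.72%) at 48 h and 7 lower (5.18%) at 96 h. It gave 0 changes of effect from 24 to 96 h (1.59%, 2.79%) and 0 from 48 to 96 h (1.12%, 0.0278%). Control changes numbered 1 from 24 to 48 h (3.83%, 9.96%) and 0 from 48 to 96 h (2.81%, 0.685%). Cyclic loess gave 6 lower (6.3%) at 24 h and 2 changes of effect from 48 to 96 h (3.21%, 0.88%). An adjusted p under 0.01 gave 5 lower (6.13%) and 1 higher (7.33%) at 24 h and 0 higher (4.78%) at 48 h. It gave 1 change of effect from 24 to 96 h (3.79%, 1.54%) and 0 from 48 to 96 h (1.19%, 0.111%). Control changes were then 2 from 24 to 48 h (5.58%, 5.87%) and 0 from 48 to 96 h (0.639%, 1.14%). An adjusted p under 0.10 gave 5 changes of effect from 24 to 96 h (9.56%, 8.01%) and 2 from 48 to 96 h (4.15%, 1.79%). It gave 4 control changes from 48 to 96 h (4.48%, 4.83%). Without the 5 arrays, counts were 4 lower (6.3%) at 24 h, 2 higher (7.82%) at 48 h and 0 lower (1.41%) at 96 h. There was 1 change of effect from 24 to 96 h (3.82%, 1.58%), and 0 control changes from 48 to 96 h (0.898%, 1.54%). Fitting the 8 arrays of a time alone gave 2 higher (7.52%) at 48 h and 0 lower (1.05%) at 96 h. The mean of a gene's probes gave 2 higher (7.27%) at 48 h and 2 changes of effect from 48 to 96 h (3.04%, 0.972%). Quantile normalization within each chip gave 2 such changes (3.07%, 0.991%). For control changes from 48 to 96 h, a filter of at least 1 array gave 0 (1.54%, 2.22%) and no filter gave 1 (1.09%, 1.57%). A covariate for detected probes gave 0 (1.08%, 2.03%). Why these counts differed was not tested.

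Leaving out 1 array gave 8 to 12 lower and 1 to 2 higher at 24 h, 7 to 9 lower and 1 to 1 higher at 48 h, 3 to 4 lower and 0 to 0 higher at 96 h, 0 to 0, 1 to 3 and 1 to 2 changes of effect (24 to 48, 24 to 96, 48 to 96 h), 3 to 5 and 0 to 4 control changes and 14 to 18 in the mean. Samples with the same replicate number did not all deviate together (r from -0.41 to 0.46, 7 of 12 over 0.1), so the numbers are not taken to pair them. With the replicate block, 0 genes were called higher at 48 h (6.94% of all genes) and 2 lower at 96 h (2.53%). The calls of Npc1l1 (adjusted p = 0.0546) and Sqle (0.0809) at 48 h and of Lss (0.0556) and Mvd (0.0827) at 96 h were lost. The block ended no other call of a named gene.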
